A study of Mus musculus with 6 samples.

Results

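The sites described here were called with an anti-MafG antibody in cells that express a tethered Nrf1-MafG heterodimer, both after proteasome inhibition and without it. They are 765 of the 3379 genomic sites that recurred in both MG132 libraries, which is 22.6% (exact 95% interval 21.2 to 24.1), and they were drawn from 11322 called summits in all. A site was counted as reproducible when the summits of both MG132 libraries were each other's nearest within 200 bp. It was kept when a summit of either vehicle library lay within 200 bp of one of them. The members were thus chosen by the positions of called summits, and so by the scores that decide a call. The 765 are called shared sites below, and the 2614 reproducible sites with no vehicle summit that near are called the other sites.

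Nrf1 is a cap'n'collar (CNC) basic leucine zipper factor that is made at the endoplasmic reticulum and is normally degraded by the proteasome. When proteasome activity falls, processed Nrf1 accumulates in the nucleus, pairs with a small Maf protein such as MafG, and binds antioxidant response elements, an activity best known for restoring transcription of proteasome subunit genes. The small Maf partner has a DNA-binding domain but no transactivation domain of its own.

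Chromatin immunoprecipitation and sequencing (ChIP-seq) was done with an anti-MafG antibody on mouse embryonic fibroblasts of the genotype MafF-/-::MafG-/-::MafK-/-:T-N1G. These cells lack all 3 small Maf proteins and express T-N1G, in which Nrf1 and MafG are joined. The tethered pair is thus the intended target of the antibody in every ChIP library, vehicle included. None of the 6 libraries came from cells without T-N1G, so signal that does not depend on T-N1G cannot be told apart. The groups were vehicle for 4 h (2 libraries) and 1.0 µM MG132, a peptide aldehyde inhibitor of the proteasome, for 4 h (2 libraries). Input libraries (2) have no list analysed here. The promoter that drives T-N1G, the number of clones behind the line and the origin of the replicates (1 culture or several) were not given in the sources used here. Summit lists hold no expression by which the fibroblast label could be checked.

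Each list gives the summit of every called peak, the single base of highest enrichment, and a score, the authors' −log10 p or q value for that peak. The lists held 24 and 828 summits in vehicle replicates 1 and 2 and 3894 and 6576 in MG132 replicates 1 and 2, so vehicle replicate 1 stands apart as the shortest. Read depth is unknown, and a score grows with reads, so scores are compared as ranks or percentiles within a list (rank 1 and percentile 100 are the highest score). Many summits tie, since 89.8% of those of MG132 replicate 1 and 75.2% of those of vehicle replicate 2 carry a score that another summit of the list also has. The lists themselves chose the shared sites, so their calls and scores are described without tests, and intervals cover counting error only. Positions are the MG132 replicate 2 summit in mm9, 1-based. No mm9 sequence or gene annotation was used here, so genes, exons and motifs at these sites are not stated.

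Nearly all shared sites came through one vehicle library. Vehicle replicate 2 called 764 of them, 22.6% of all reproducible sites, and vehicle replicate 1 called 23, or 0.681%. Both vehicle lists called 22 sites, 742 were in vehicle replicate 2 only, and 1 was in vehicle replicate 1 only. Without vehicle replicate 2 the set would therefore shrink to 23 sites, whereas without vehicle replicate 1 it would hold 764. The sites called in the short list were almost wholly a subset of those in the long one. Of the 764 sites called in vehicle replicate 2, 22 were also called in vehicle replicate 1 (2.88%, exact 95% interval 1.81 to 4.33), against 1 of the 2615 reproducible sites that vehicle replicate 2 did not call (0.0382%, 0.000968 to 0.213). Each shared site had its own vehicle summit, with 764 distinct summits of vehicle replicate 2 and 23 of vehicle replicate 1 behind them.

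The match was clear-cut in distance. The vehicle summit lay within 200 bp of both MG132 summits at 764 sites and of the MG132 replicate 1 summit alone at 1 site. The 5 shared sites nearest to the limit had their closest vehicle summit at 113, 132, 150, 163 and 194 bp, respectively at 144211817 on chromosome 2, 120534916 and 20258079 on chromosome 11, 119076811 on chromosome 2 and 53318854 on chromosome 10. All 5 had low scores in vehicle replicate 2, between 3.53 and 7.40. Beyond the limit the next reproducible sites were at 652 bp (chromosome 10 at 72116746), 711 bp (chromosome 11 at 75274751), 1004 and 1077 bp (chromosome 1 at 120265801 and 181792637) and 1637 bp (chromosome 6 at 87819133). No reproducible site had its closest vehicle summit between 194 and 652 bp away.

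The shared sites filled the top of the MG132 order. When reproducible sites were ordered by their mean percentile over both MG132 lists, the first 76 were all shared, and of the best 200 and 500 sites 186 and 399 were. The first decile of the order held 293 shared sites among 338 (86.7%, 82.6 to 90.1), and the second held 193 (57.1%, 51.6 to 62.4). The share then went to 31.7% in the third decile, 19.8% in the fourth and 10.4% in the fifth. It was 6.80% in the sixth, 9.47% in the seventh and 3.55% in the eighth, and the last 2 deciles together held 3 shared sites. All 23 sites called in vehicle replicate 1 were in the first decile. Although 486 of the 765 (63.5%) lay in the first 2 deciles, 70 lay in the lower part of the order, beyond its midpoint. Scores decide what is called in any list, so this gradient describes the set and is no test of it.

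**Figure D1:**
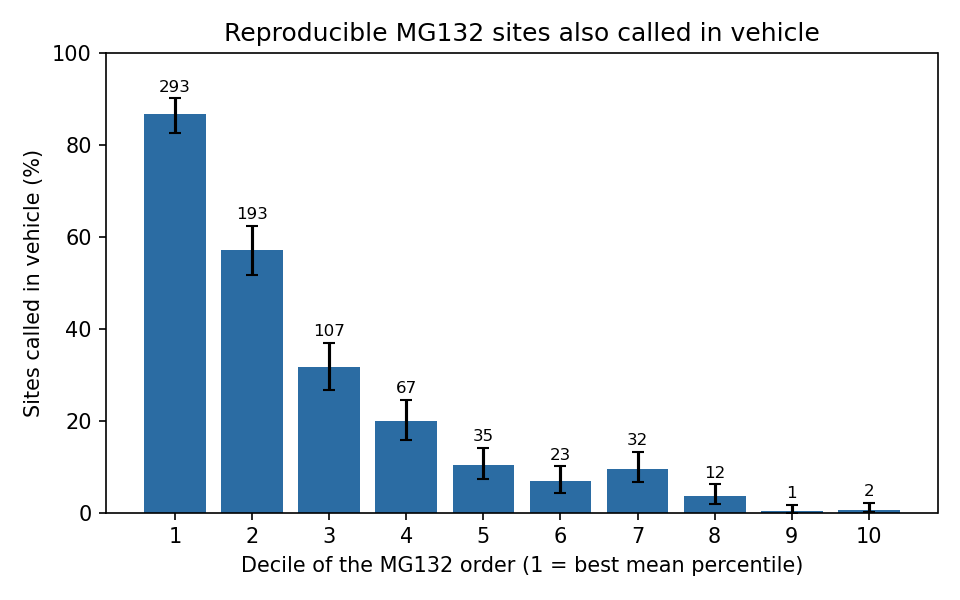
Percent of reproducible MG132 sites that were also called in vehicle, for each decile of the sites ordered by mean percentile in the 2 MG132 lists (1 is the best decile). Bars start at 0, lines are exact 95% intervals for counting error, and the number above each bar is the count of shared sites, from 293 in the first decile to 2 in the last.

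The score distributions of shared and other sites overlapped in both MG132 lists. For MG132 replicate 1 the shared sites had scores from 3.98 to 282 with a median of 28.5, which is a median percentile of 86.8. The other sites of that list ranged from 1.34 to 106 with a median of 10.5, or percentile 47.4. For MG132 replicate 2 the shared sites ranged from 6.25 to 404 with a median of 54.2 (percentile 93.1), and the other sites from 1.62 to 131 with a median of 15.6 (percentile 64.0). Low scores after MG132 thus occurred among shared sites in both libraries, and high scores occurred among sites that no vehicle list called. The best of the latter, on chromosome 5 at 150779723, was 77th in the MG132 order with scores of 90.4 and 122.

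In vehicle replicate 2 the scores of the shared sites ran from 1.60 to 170 with a median of 9.47 and quartiles of 6.42 and 16.1. Most vehicle calls were therefore far below the strongest. At the threshold end, the sites at 43811746 on chromosome 10 and 100690592 on chromosome 4 had the lowest vehicle score, 1.60, and ranked 827 of 828. The first of these was rank 432 in MG132 replicate 1 and 1273 in MG132 replicate 2, and the second was rank 1855 and 4020. Sites close to the vehicle threshold thus came from different parts of the MG132 order.

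Vehicle and MG132 placed the shared sites in a similar but looser order than the MG132 replicates did between themselves. Over the 764 sites with a score in vehicle replicate 2, Spearman's rho with that list was 0.50 for MG132 replicate 1 and 0.62 for MG132 replicate 2, against 0.75 between the MG132 replicates. These are descriptions across sites, which are not independent replicates, and each vehicle score was cut off at the calling threshold. The quartile of sites with the highest vehicle scores (16.1 to 170, 191 sites) had median percentiles of 95.8 and 97.7 in MG132 replicates 1 and 2. The quartile with the lowest vehicle scores (1.60 to 6.27, 188 sites) had medians of 77.7 and 87.2. Even the shared sites with the weakest vehicle calls therefore had a median well inside the upper part of both MG132 lists. Single sites reached down to scores of 3.98 and 7.97 there. Vehicle summits that matched no reproducible site are not in these quartiles.

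**Figure D2:**
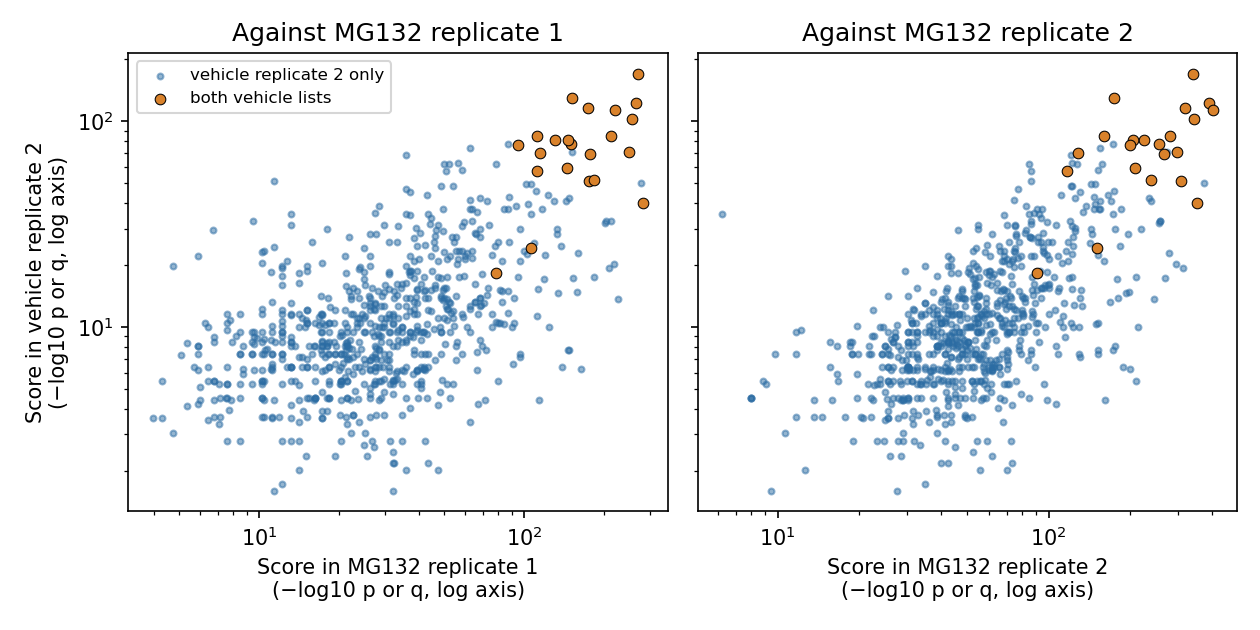
Score of each shared site in vehicle replicate 2 (vertical) against its score in MG132 replicate 1 (left) and replicate 2 (right), on log axes and in −log10 units. Blue points were called in vehicle replicate 2 only (742) and orange points in both vehicle lists (22). The order of sites in vehicle replicate 2 was closer to that in MG132 replicate 2 (rho 0.62) than in MG132 replicate 1 (rho 0.50).

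The strongest vehicle sites were mostly strong after MG132, but the top of each order differed. Of the 25 best shared sites by vehicle replicate 2 score, 10 were among the 25 best by MG132 replicate 1 and 11 among those by MG132 replicate 2, while the MG132 replicates had 21 in common. With the best 100 of each, the counts were 46, 60 and 77. Vehicle replicate 2 stood nearer in order to MG132 replicate 2, which bears the same number, at 433 sites and nearer to MG132 replicate 1 at 324, with 7 at equal distance. Only 1 long vehicle list exists, so how far a second such list would have matched it is unknown. The median site was 119 places apart between vehicle replicate 2 and the combined MG132 order, and 86.5 places apart between the MG132 replicates, among 764 places.

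Some shared sites ranked much better in vehicle replicate 2 than in the combined MG132 order. The difference was over 300 places at 50 sites (6.54%). For comparison, 53 of the 764 sites were over 300 places apart, in either direction, between the MG132 replicates themselves. The most extreme was on chromosome 17 at 4626324, with a vehicle score of 35.5 (rank 62 of 828), an MG132 replicate 1 score of 13.2 (rank 1496) and an MG132 replicate 2 score of 6.25 (rank 5188 of 6576), the lowest of any shared site in that list. It was 61st among shared sites in vehicle and 759th after MG132. The next were at 30983682 on chromosome 2, 31170350 on chromosome 6, 38043348 on chromosome 18 and 100057712 on chromosome 15. At these 4 the low place came from MG132 replicate 1, where they ranked between 2300 and 3618, while MG132 replicate 2 ranked them between 190 and 903. The 50 sites as a group had a median percentile of 58.4 in MG132 replicate 1, 89.8 in MG132 replicate 2 and 77.1 in vehicle replicate 2. For all 764 sites these medians were 86.8, 93.1 and 51.3, so in percentiles the shortfall was larger in MG132 replicate 1. At 40 of the 50, vehicle replicate 2 stood nearer in order to MG132 replicate 2, and at 9 to MG132 replicate 1. The combined order is a mean of percentiles, which spread more widely over shared sites in MG132 replicate 1 (quartiles 70.2 and 94.6) than in MG132 replicate 2 (87.3 and 96.8). A low combined place is thus set more by MG132 replicate 1. The choice by order difference therefore builds in part of these gaps, and they describe the group only. Among the 5 sites named, only the one on chromosome 17 had its poorer rank in MG132 replicate 2.

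Other shared sites were near the top after MG132 and barely called in vehicle. The difference was over 300 places in this direction at 55 sites (7.20%). The 53 sites that far apart between MG132 replicates cover both directions, so they stand beside the 50 and the 55 together. They also compare 2 single lists, whereas the 50 and the 55 use the combined MG132 order. The site on chromosome 8 at 48596477 had scores of 114 and 162 in MG132 replicates 1 and 2 (ranks 47 and 53) and a vehicle score of 4.43 (rank 744 of 828). Those at 36459907 on chromosome 8 and 8811080 on chromosome 16 had MG132 ranks between 106 and 139 in both lists and vehicle ranks of 757 and 744. On chromosome 17 at 83954527, ranks 21 and 33 with MG132 stood against 617 in vehicle. The 55 sites had median percentiles of 93.9 and 95.9 in MG132 replicates 1 and 2 and 20.5 in vehicle replicate 2. Over all 764 sites these medians were 86.8, 93.1 and 51.3. The choice by order difference sets the direction of these gaps, so they describe the group only. None of the 5 most extreme was called in vehicle replicate 1, which called only 22 of all 764 sites (2.88%).

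The 22 sites called in all 4 libraries all lay in the first decile of the MG132 order. Their MG132 ranks ran from 1 to 92 in replicate 1 and from 1 to 170 in replicate 2, and their vehicle replicate 2 ranks from 1 to 176. Within the 22, rho was 0.90 between the MG132 replicates and 0.59 between the vehicle replicates. Across treatment it was 0.33 and 0.24 for vehicle replicate 1 with MG132 replicates 1 and 2, and 0.40 and 0.43 for vehicle replicate 2. The order of these few sites was thus close between the MG132 libraries and looser in each comparison that involved a vehicle library, where the scores of vehicle replicate 1 span only 1.60 to 34.8.

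The leading vehicle site of both libraries was on chromosome 8 at 77613647. It scored 34.8 in vehicle replicate 1, 170 in vehicle replicate 2, 270 in MG132 replicate 1 and 339 in MG132 replicate 2. It held rank 1 in both vehicle lists and ranks 4 and 7 in the MG132 lists, and its 4 summits fell within 22 bp.

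Beside it, on chromosome 8 at 77607907, lay the site ranked 2 in both vehicle lists. Its scores were 24.5 and 130 in vehicle and 152 and 175 with MG132. The pair spans 5.74 kb, and the second site had ranks 25 and 45 in the longer MG132 lists.

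Some of the 22 were placed differently by the short vehicle list. On chromosome 8 at 19979982 the scores were 20.2 (rank 3 of 24) and 57.6 (rank 27) in vehicle and 112 (rank 51) and 117 (rank 109) with MG132. The summits of vehicle replicate 2 and MG132 replicate 2 were at the same base there. On chromosome 6 at 9011460, vehicle replicate 1 gave a score of 7.78 (rank 12 of 24), but vehicle replicate 2 gave 18.4 (rank 176) and the MG132 libraries 78.4 (rank 92) and 90.2 (rank 170), the lowest place of the 22 in both MG132 lists. By contrast, the site on chromosome 8 at 106226381 stood low among the 22 in both vehicle lists, with scores of 1.69 (rank 23 of 24) and 24.3 (rank 119) in vehicle and 107 and 150 with MG132.

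Conversely, 2 of the best MG132 sites stood in the lower part of the short vehicle list, though not of the long one. The site on chromosome 9 at 119551225 had the highest score of MG132 replicate 1, 282, and 353 in MG132 replicate 2 (rank 5), but scores of 5.16 and 40.1 in vehicle (ranks 16 and 49). On chromosome 5 at 144175910 the MG132 scores were 176 and 306, and the vehicle scores were 1.60 (rank 24 of 24) and 51.5 (rank 30). Its summits were also the most scattered of the 22, with 127 bp between the MG132 replicates and 229 bp between the vehicle replicates. Among sites called in vehicle replicate 2 only, chromosome 13 at 51380250 (MG132 ranks 3 and 4), chromosome 17 at 65033636 (10 and 12) and chromosome 9 at 103573250 (13 and 9) were the best, with vehicle scores of 49.9, 20.3 and 19.3. The last 2 of these had ranks 155 and 164 of 828 in vehicle.

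**Figure D3:**
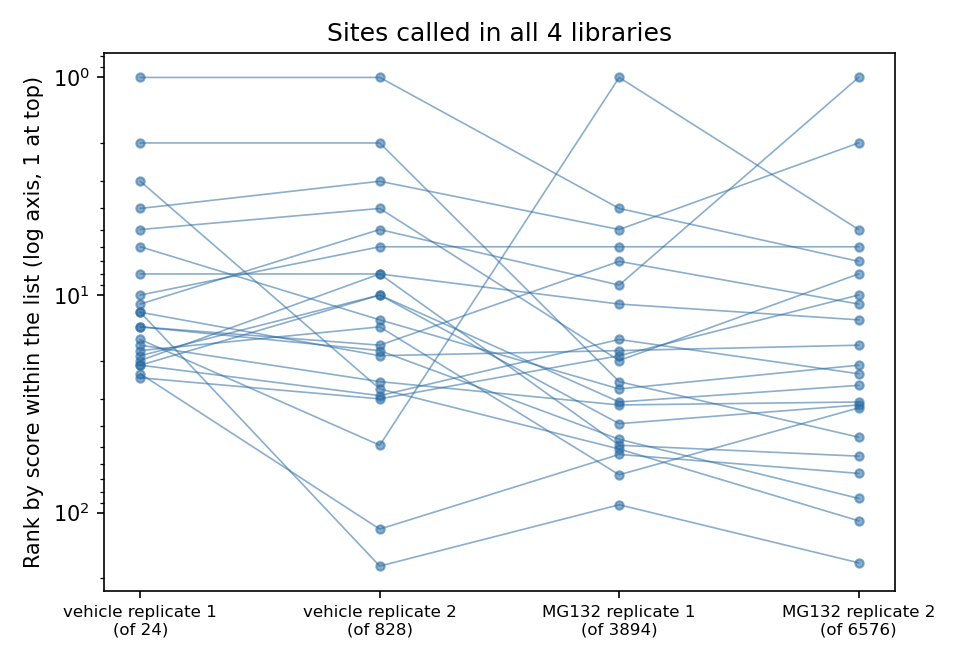
Rank by score within each list (log axis, rank 1 at the top) of the 22 sites called in all 4 libraries, 1 line per site. List lengths are given under the axis, so positions describe each list and not a change between lists. The order is kept more closely between the MG132 lists (rho 0.90) than between the vehicle lists (rho 0.59).

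The site called in vehicle replicate 1 but not counted in vehicle replicate 2 was the best of all by mean MG132 percentile, on chromosome 6 at 31767831. Its MG132 scores were 277 and 375 (ranks 2 and 3), and vehicle replicate 1 had a summit 10 bp from the nearer MG132 summit, with a score of 10.8. The vehicle replicate 2 summit in this region scored 89.5 (rank 7) and lay 313 bp away, past the 200 bp limit. Only 19 bp from it was another summit of vehicle replicate 1, with a score of 9.41 (rank 9), so both vehicle libraries had a separate summit at this place. Under a limit of 500 bp the MG132 site would count as called in both.

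Vehicle and MG132 summits lay close together. From vehicle replicate 2 to MG132 replicates 1 and 2 the median distance was 16 bp in each case (exact 95% interval 14 to 17), with 87.8% and 88.2% of the 764 sites within 50 bp. At the same sites the MG132 replicates were closer to each other, with a median of 10 bp (9 to 11) and 96.2% within 50 bp. The selection allows up to 200 bp, so the values lie far inside its limit. At the other sites the MG132 replicates were 15 bp apart (14 to 16), of which 90.8% were within 50 bp.

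Distance followed score. From vehicle replicate 2 to MG132 replicate 2 the median was 12 bp in the quartile of highest vehicle scores and 14, 17 and 22.5 bp in the following quartiles. Within the first decile of the MG132 order, the MG132 replicates were 8 bp apart (6 to 9) at shared sites and 12 bp (7 to 17) at the 45 other sites. In the second decile the medians were 10 bp (9 to 12) and 12 bp (10 to 14), and in the third 12 bp in both sets. Intervals overlapped in each of these deciles, and a difference in spacing at like MG132 order was not tested. In the sixth decile the shared sites had the larger median, 30 bp (9 to 41, 23 sites) against 14 bp (12 to 17), and these intervals overlapped too.

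The vehicle summit fell to either side of the MG132 summits about equally. It lay at lower coordinates than both at 289 sites (37.8%, 34.4 to 41.4), at higher coordinates at 275 (36.0%, 32.6 to 39.5) and between or on them at 200. At 32 sites it was on the same base as an MG132 summit. Distances over 100 bp were few, at 11 sites from MG132 replicate 1 and 10 from MG132 replicate 2. The largest was on chromosome 10 at 53318854, where the vehicle summit was 194 bp from one MG132 summit and 219 bp from the other. On chromosome 3 at 100354951 the distances were 195 and 79 bp although the site ranked 89 and 30 with MG132, and the MG132 summits were themselves 116 bp apart.

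**Figure D4:**
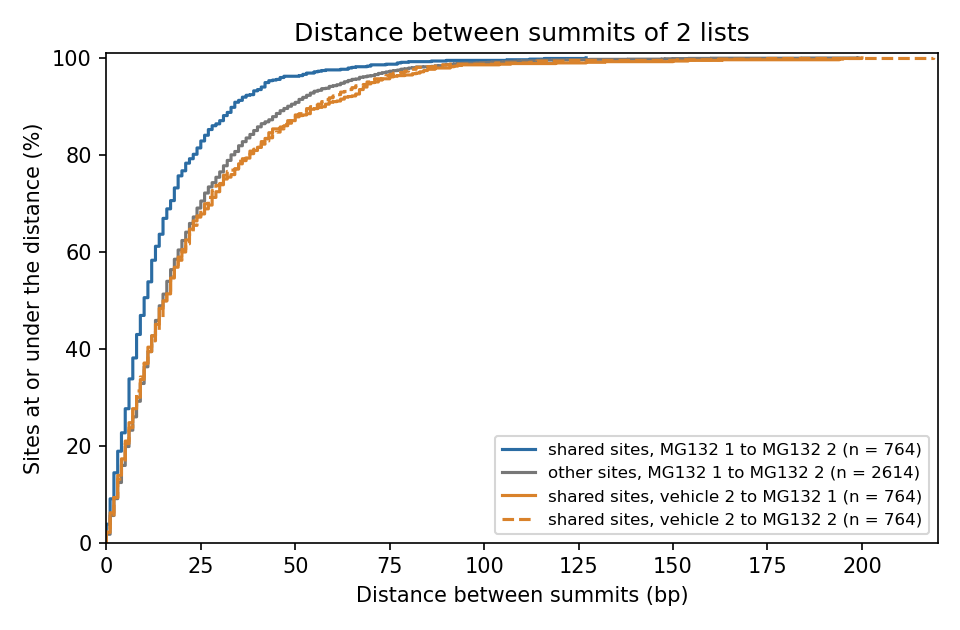
Percent of sites (vertical) with summits of 2 lists at or under a distance in bp (horizontal). The blue line is the distance between MG132 replicates at shared sites (median 10 bp), the grey line the same at the other sites (median 15 bp), and the orange lines are from vehicle replicate 2 to each MG132 replicate at shared sites (median 16 bp), which run close to each other.

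Shared sites were spread over all autosomes and X. The share of reproducible sites called in vehicle was 22.9% on the autosomes together (755 of 3293, 21.5 to 24.4). It ran from 17.4% on chromosome 12 (24 of 138, 11.5 to 24.8) to 27.8% on chromosome 19 (35 of 126, 20.2 to 36.5), so the intervals of the extreme autosomes overlapped. On X it was 11.6% (10 of 86, 5.72 to 20.3), an interval that ends below that of the autosomes. The X sites also stood lower in the MG132 order, with a median mean percentile of 51.8 against 61.4 on autosomes, and 4 of them were in the first 2 deciles. Had X sites been called in vehicle at the rate of the other chromosomes in the same deciles, 9.90 would have been, against the 10 found.

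The 10 shared sites on X were all called in vehicle replicate 2 and none in vehicle replicate 1. Over the whole set, vehicle replicate 2 called 764 of the 765 and vehicle replicate 1 called 23, so this pattern is not particular to X. The best site on X was at 7343115, with scores of 29.7 and 70.1 after MG132 and 31.4 in vehicle (rank 75). The site at 71244803 had the same vehicle score, with 13.2 and 54.6 after MG132, and lay 67.4 kb from a weaker one at 71177369 (vehicle score 5.46). The remaining 7, from 34685094 to 160960304, had vehicle scores between 6.18 and 8.41, which is below the median of all shared sites. The lowest of the 10 in the MG132 order was at 76896636, with ranks 2548 and 1982.

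**Figure D5:**
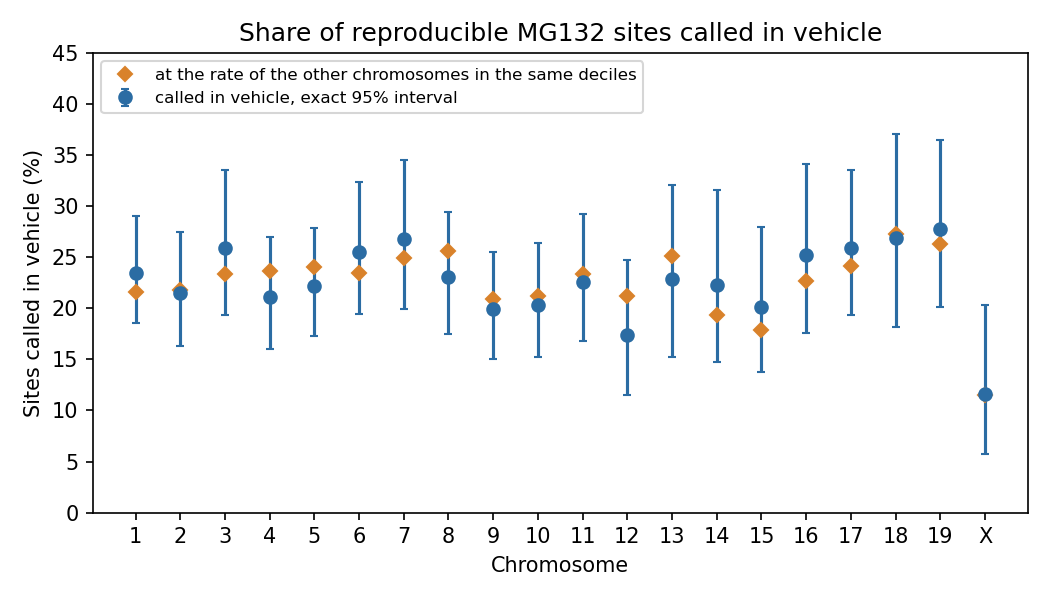
Percent of reproducible MG132 sites on each chromosome that were also called in vehicle (blue, with exact 95% intervals for counting error). Orange diamonds give the percent expected if the sites of that chromosome were called at the rate of all other chromosomes in the same decile of the MG132 order; on X both lie near 11.6%.

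Most shared sites stood alone. Within 10 kb of another shared site lay 20 of the 765 (2.61%, 1.60 to 4.01), which formed 10 pairs and no larger group, and 745 had none. Counting any reproducible site as a neighbour, 48 shared sites (6.27%, 4.66 to 8.23) and 145 other sites (5.55%, 4.70 to 6.49) had one within 10 kb. Within 50 kb the shares were 25.2% (22.2 to 28.5) and 20.8% (19.3 to 22.4), and the difference was not tested. A site called in neither vehicle list lay within 10 kb of 28 shared sites.

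The pairs differed in strength. Behind the pair on chromosome 8 described above came one on chromosome 16, at 14351058 and 14352892, which are 1.83 kb apart. Its scores were 54.1 and 63.9 in MG132 replicate 1, 121 and 90.4 in MG132 replicate 2, and 48.4 and 37.6 in vehicle replicate 2 (ranks 35 and 53), so both members were in the best 173 of each of these lists and neither was called in vehicle replicate 1.

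On chromosome 11 the sites at 50024588 and 50026435, 1.85 kb apart, were unequal. The first scored 10.3, 42.7 and 11.6 in MG132 replicate 1, MG132 replicate 2 and vehicle replicate 2, and the second scored 21.8, 85.6 and 27.3. The second was thus higher in each of these libraries. The closest pair, 1297 bp apart on chromosome 7 at 57018259 and 57019556, was weak in vehicle, with scores of 2.80 and 8.52. There the site with the higher scores after MG132 (20.5 and 54.5, against 17.3 and 42.5) had the lower score in vehicle. The other pairs were on chromosomes 1, 4, 6, 9, 17 and 19, spanned 2.13 to 7.60 kb, and had vehicle scores from 3.91 to 23.5.

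At the other end of the MG132 order were the 5 weakest shared sites. On chromosome 1 at 152345050 the MG132 scores were 4.75 and 10.7 (ranks 3618 and 3701) and the vehicle score was 3.03 (rank 797). The sites on chromosome 12 at 20215638 and chromosome 5 at 80913293 had the same score in MG132 replicate 2, 7.97, and the same in vehicle, 4.54. Those on chromosome 2 at 49630881 and chromosome 10 at 83851818 had vehicle scores of 3.60 and 9.66. Of these 5, the one on chromosome 10 was near the middle of the vehicle list (rank 402 of 828), and the others ranked from 715 to 797. In all 5 the vehicle summit was within 27 bp of an MG132 summit.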

How the data were processed

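ChIP-seq summits of 4 libraries were used, 2 vehicle and 2 MG132, grouped by their titles. The authors deposited 1 headerless BED list per library with 1-bp summits and a −log10 p or q value in column 5. Per the submitters' processing notes, bcl2fastq 2.16.0.10, Bowtie2 2.2.9, MACS2 2.1.4 and mm9 were used. Options, thresholds, duplicate handling and input use were not given in the sources used here. The lowest score is 1.34. A deeper library gives more and higher scores, so list lengths and scores mix binding with depth, which is unknown.

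Summits were converted to 1-based positions and matched as the opening states. A percentile is the share of the summits of a list with an equal or lower score. Shares have exact Clopper-Pearson 95% intervals and medians exact order-statistic ones. No test was run, because the lists chose the members. The expected count per chromosome applies the member rate of all other chromosomes in each decile. Named sites were drawn from planned groups, and not every site of each group is named. The groups were all members called in all 4 lists, and the 10 best and 5 lowest by mean MG132 percentile. Further groups were the 5 with the largest order differences each way and the 5 largest displacements. The last were the 5 nearest either side of 200 bp, neighbours within 2 kb and members on X. The members and lists were chosen with earlier results of these data known. Sites of lowest vehicle score, the other pairs within 10 kb and the best site called in neither vehicle list were added after values were seen. The planned motif, transcription start and gene list analyses were not run, since no mm9 reference was at hand and no coordinate was moved between builds. The matching was tested on simulated data. The work used SciPy 1.17.1, pandas 2.3.3, NumPy 2.4.6 and matplotlib 3.10.9 under Python 3.11.15.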

Additional observations from a re-analysis of the deposited data

How the results depend on the processing

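No paired analysis was possible because the values come from no test. Of 74 alternatives, 53 stayed within counting error, within the spread of the MG132 replicates (rho) or within 1.5 times the main count, and 21 moved. The number of shared sites was 687 to 767 with match distances of 50 to 1000 bp and 657 with scores of at least 5. With scores of at least 10 it was 363, 18.6% of reproducible sites. There the median distances to vehicle were 13 bp for both MG132 replicates, and the median percentiles 89.0 and 93.9 in MG132 replicates 1 and 2. Of the shared sites, 0.551% were then on X, against 1.31% in the main set. This is the part of all shared sites that lies on X, not the share of X sites called in vehicle. Leaving out a library gave between 23 sites (0.681% of reproducible sites, without vehicle replicate 2) and 803 sites (12.2% of all summits of MG132 replicate 2, without MG132 replicate 1). The share was at most 22.6% in these alternatives. It was 19.7% of all summits of MG132 replicate 1 (766 sites) without MG132 replicate 2. Across the 2 alternatives that leave out a vehicle replicate, the median distance was 16 to 18 bp from MG132 replicate 1 and 10 to 16 bp from MG132 replicate 2. The median percentile was 86.8 to 99.5 and 93.1 to 99.7, and rho 0.35 to 0.50 and 0.28 to 0.62. The share with a neighbour was 2.62% to 8.70%, and the part of the shared sites on X 0% to 1.31%. Of 23 sites, 0 on X allows up to 14.8%. The outer values are those of the 23 sites of vehicle replicate 1. The share with another shared site nearby was 0.784% within 2 kb and 7.97% within 50 kb, by the construction of the distance. Alternatives on motifs and genes were left out with the analyses they belong to. Unknown read depth limits every call, and absence from a vehicle list does not show that a site was unoccupied.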

Other observations

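Vehicle summits that are not at a shared site were few. Of the 828 summits of vehicle replicate 2, 64 had no place in the set: 39 lay within 200 bp of a summit of MG132 replicate 2 only, 1 near MG132 replicate 1 only, and 24 (2.90%) near neither. The 39 had a median score of 6.42. The strongest of them, on chromosome 8 at 59029723, scored 28.7 (rank 90) and lay 6 bp from a summit of MG132 replicate 2, with no summit of MG132 replicate 1 within 345 kb.

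The 24 summits near neither MG132 list had a median score of 12.2 and a median percentile of 63.4 in vehicle replicate 2, against 9.47 and 51.3 for the shared sites. Beside the chromosome 6 summit already described, those of highest score were on chromosome 10 at 11211942 (32.8, rank 67), chromosome 5 at 147072666 (29.8, rank 86) and chromosome 17 at 36368232 (rank 111). Their nearest MG132 summits of either replicate were 158, 15.5 and 91.0 kb away. None of these 3 had a summit of vehicle replicate 1 within 200 bp. These sites were chosen after their values were seen.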
